A study of Mus musculus with 4 samples.

Results

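Collagen genes encode the chains of the extracellular matrix collagens, and their signal was described here in sorted basal cells of embryonic mouse skin. Members were all probe sets of an Affymetrix mouse expression array that are annotated to a single symbol made of Col, a number, the letter a and a number. This gave 82 of 45037 non-control probe sets, for 42 of 18193 genes. Of these, 57 probe sets for 33 genes had a mean signal in the upper 60% of all probe sets and were tested. Fibrillar collagens were represented by 11 genes (10 kept), basement membrane collagens of type IV by 6 (4 kept) and the other collagens by 25 (19 kept).

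The arrays came from basal cells purified by flow cytometry at embryonic day 16, from wild-type (WT) embryos and from embryos labelled Ezh2cKO, a conditional knockout of the Polycomb histone methyltransferase gene Ezh2, both in a mixed C57 and CD1 strain background. There were 4 arrays, 2 per genotype, numbered 1 and 2 in each. The Cre driver, the sort markers and whether embryos were pooled are not given in the sources used here, and the labels do not say that the replicates were separate animals, so a p-value here reflects the scatter of these 4 arrays, part of which may be technical. The comparison asked which genes depend on Ezh2 in epidermal progenitors.

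Collagen chains share long runs of glycine-led repeats that wind around each other into a helix. Fibrillar collagens assemble into the cables of the dermis and are made mainly by fibroblasts. Type IV collagen forms the sheet of the basement membrane under the epidermis and around vessels. Collagen XVII anchors basal keratinocytes to that sheet, and collagen VII ties the sheet to the dermis. Signals are given as MAS5 signal on each array, a value on a linear scale that cannot be compared between probe sets, and differences as log2 of signal plus 16, which understates differences of dim probe sets. Unless another error is named, values are mean ± SD with n = 2, and a gene is represented by its brightest kept probe set.

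The upstream sequences of 4 members are shown as a description, and a link between sequence and signal was not tested. Col8a1 was higher on both Ezh2cKO arrays, and Col17a1 is the hemidesmosome collagen of basal keratinocytes. Col1a2 and Col3a1 are fibrillar chains that were brighter on the arrays numbered 2 in the deposited scaling. Each run holds the 250 bases before the RefSeq transcript start, 5′ to 3′ on the gene's strand, in build GRCm38.p6, at chr16:57754738-57754987, minus strand for Col8a1, chr19:47692043-47692292, minus strand for Col17a1, chr6:4505368-4505617, plus strand for Col1a2 and chr1:45311288-45311537, plus strand for Col3a1. Capitals mark matches, on either strand, to TATAAA, the TATA box, to CCAAT, the CCAAT box, to GGGCGG, the GC box, or to TGANTCA, the site of the factor AP-1.
Col8a1: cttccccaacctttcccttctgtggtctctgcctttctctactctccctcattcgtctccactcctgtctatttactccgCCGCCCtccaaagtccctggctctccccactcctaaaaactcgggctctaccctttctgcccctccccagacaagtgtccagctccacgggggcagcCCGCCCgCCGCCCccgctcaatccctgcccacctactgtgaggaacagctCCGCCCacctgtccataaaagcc
Col17a1: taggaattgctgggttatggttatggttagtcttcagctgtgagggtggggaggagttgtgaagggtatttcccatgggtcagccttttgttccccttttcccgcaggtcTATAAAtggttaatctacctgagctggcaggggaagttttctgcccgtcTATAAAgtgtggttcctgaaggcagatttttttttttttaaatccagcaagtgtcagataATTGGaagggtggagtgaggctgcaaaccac
Col1a2: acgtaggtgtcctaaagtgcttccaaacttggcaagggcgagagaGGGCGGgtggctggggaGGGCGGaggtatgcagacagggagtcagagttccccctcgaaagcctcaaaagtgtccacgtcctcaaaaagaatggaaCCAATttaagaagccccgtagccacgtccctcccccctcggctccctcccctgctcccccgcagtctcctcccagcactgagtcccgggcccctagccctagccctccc
Col3a1: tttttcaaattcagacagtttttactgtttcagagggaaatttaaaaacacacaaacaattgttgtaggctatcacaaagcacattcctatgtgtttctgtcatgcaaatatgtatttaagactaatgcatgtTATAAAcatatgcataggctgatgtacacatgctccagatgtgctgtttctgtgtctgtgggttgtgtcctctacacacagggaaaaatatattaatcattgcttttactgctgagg
Col8a1 held 4 GC box matches and no TATA or CCAAT match, Col17a1 held 2 TATA box matches and 1 CCAAT match, Col1a2 held 2 GC box matches and 1 CCAAT match, and Col3a1 held 1 TATA box match and no CG dinucleotide. RefSeq upstream windows were matched for 33 of the 42 genes on the array. Over all 38 collagen windows in the table, which include Col6a6 and Col28a1, the GC box was found in 57.9%, against 32.7% of 32851 windows of all genes, the CCAAT box in 34.2% against 33.8%, the TATA box in 13.2% against 12.4% and the AP-1 site in 2.63% against 6.75%. A match is a description of these letters and no evidence of binding.

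Data quality facts that touch the results are few. Ezh2 itself read 3336 and 3603 in WT, against 661 and 1308 in Ezh2cKO. Basal keratinocyte markers were bright, with Krt5, a basal keratin, between 15518 and 18518. The filter was also passed by 15 of 15 dermal fibroblast, 10 of 10 endothelial and 7 of 7 mural markers, beside 12703 of 18193 genes. Dcn, which encodes the fibroblast proteoglycan decorin, read between 13276 and 17210. Of the markers on the array, 7 of 10 were kept for skeletal muscle, 3 of 7 for cartilage, 4 of 7 for melanocytes and 6 of 8 for immune cells. The basal (10 of 10), suprabasal (7 of 7) and Schwann (5 of 5) markers were all kept. No kept marker of these lists read 0, but collagen genes under the filter also read above 0, the lowest at 2.68. This therefore says little about which cells were present. In such bulk samples, fewer cells of a type and less RNA per cell cannot be told apart. The median signal over all probe sets was 87.4 and 91.6 on the arrays numbered 1 and 137 and 148 on those numbered 2.

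Between the genotypes, collagen genes differed little and none passed the test. Limma called 0 of the 33 genes at an adjusted p under 0.05, as it called 0 (0%) of all 27022 probe sets tested, and at an unadjusted p under 0.05 it gave 1 of 33 collagen genes, Col8a1, beside 77 of 12703 genes, or 2 of 57 collagen probe sets beside 110 of 27022. Ezh2 itself missed this threshold (log2 -1.88, SE 0.34, limma's adjusted p 0.999979), so a missed threshold here does not show that a collagen gene did not differ. Both Ezh2cKO arrays lay above both WT arrays for 1 collagen gene (3.03%), while 8.52% of 12703 genes did so, and below both for 3 genes (9.09%), while 8.39% of all genes did so. These shares are near or under those of all genes. The deviations of same-numbered arrays correlated at 0.77 and the fit had no term for the number, so each SE and each overlap of groups also holds the difference between array numbers. The median log2 difference was -0.07 over the 33 collagen genes and -0.004 over all genes tested, and apart from Col8a1 the differences lay between -0.42 and 0.41.

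Col8a1, a short-chain collagen known from vessel walls and corneal endothelium, had the largest log2 difference among the 33 genes and is singled out after its values were seen. Its brightest probe set had 472 and 426 in WT, against 904 and 620.2 in Ezh2cKO. The second kept probe set had 340.3 and 373 in WT and 660.0 and 629 in Ezh2cKO. On both, the groups did not overlap. By the brightest probe set the mean signal was 449 ± 32.4 in WT and 762 ± 201 in Ezh2cKO (log2 0.72, SE 0.26, 95% confidence interval 0.06 to 1.38), 1.89-fold within number 1 and 1.44-fold within number 2. The second probe set gave log2 0.83 (SE 0.22), 1.90-fold and 1.66-fold. Limma's adjusted p over all probe sets was 0.999979 for each. The remaining probe set, below the filter, had 17.6 and 25.2 in WT and 44.1 and 83.7 in Ezh2cKO. Col8a2, the partner chain of type VIII collagen, lay below the filter with 31.6 and 44.3 in WT and 67.6 and 54.1 in Ezh2cKO. With arrays scaled to a common median, the Col8a1 groups overlapped, at a log2 difference of 0.70, and without Ezh2cKO replicate 1 the difference was 0.45.

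**Figure D1:**
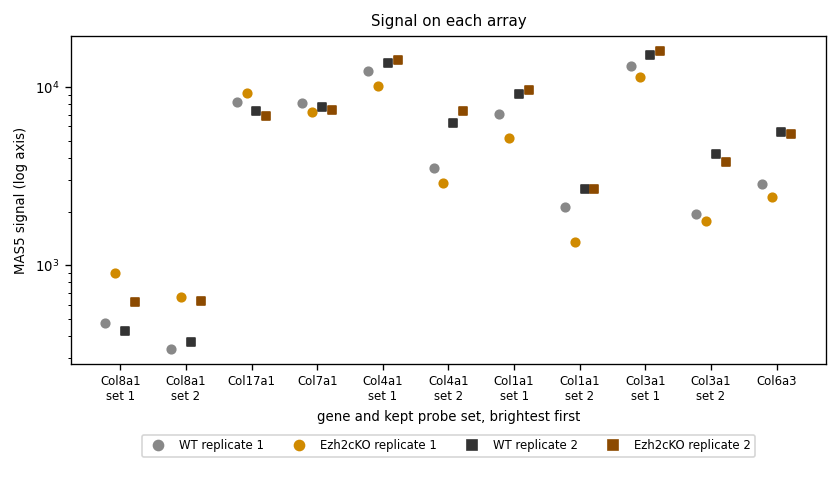
MAS5 signal (log axis) of each kept probe set of 7 collagen genes, with circles for the arrays numbered 1, squares for those numbered 2, grey and black for WT and light and dark orange for Ezh2cKO. Both Col8a1 probe sets were higher on each Ezh2cKO array than on each WT array, while the arrays numbered 2 were the higher ones for each probe set of Col1a1, Col3a1, Col4a1 and Col6a3.

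The 3 genes that were lower on both Ezh2cKO arrays, named after their values were seen, were Col4a5, Col7a1 and Col18a1, and each difference was small. Col4a5, a type IV chain, had 2669.5 and 2976 in WT and 2036 and 2644 in Ezh2cKO (log2 -0.28, SE 0.20), but its other probe set had 1065 and 1319 against 1083 and 1309 (log2 0.01). Col7a1, the anchoring fibril collagen that ties the basement membrane to the dermis, had 8175 and 7732 in WT and 7278 and 7466 in Ezh2cKO (log2 -0.11, SE 0.13). Col18a1, the basement membrane proteoglycan that is the source of endostatin, had 7683 and 7283 against 7025 and 7242 (log2 -0.07), with overlapping groups on its second probe set. With quantile normalization, Col7a1 was 1 of 2 genes separated downwards and Col4a5 and Col18a1 were not among them, and with arrays scaled to a common median none of Col4a5, Col7a1 and Col18a1 was separated.

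Type IV genes lie in head-to-head pairs, with Col4a1 beside Col4a2 and Col4a6 beside Col4a5 on opposite strands in RefSeq. Col4a1 had 12256 and 13607 in WT and 10175 and 14215 in Ezh2cKO (log2 -0.10, SE 0.19), and Col4a2 had 5432 and 6958 against 4714 and 7097 (log2 -0.09, SE 0.25). Col4a1 and Col4a2 form the common type IV network, and the groups overlapped for each. In the other pair, Col4a6 gave opposite signs on its probe sets. The brighter had 759 and 951 in WT and 866 and 1019.9 in Ezh2cKO (log2 0.14), and the other had 766 and 651 against 536 and 551 (log2 -0.37, SE 0.21), where the groups did not overlap. Col4a3 and Col4a4, chains known from kidney and other specialised basement membranes, had no kept probe set, with signals between 2.68 and 80.0.

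Among the fibrillar genes, 0 of 10 were separated in either direction, although with arrays scaled to a common median Col1a1 and Col5a3 were separated downwards. Col1a1 and Col1a2 encode the chains of type I collagen, the bulk of the dermal matrix. Col1a1 had 7044 and 9130.0 in WT and 5178 and 9581 in Ezh2cKO, and Col1a2 had 11628 and 14462 against 10978 and 15102. Col3a1, which joins type I in young skin, had 13115 and 15194 in WT and 11369.5 and 15853 in Ezh2cKO. For each the Ezh2cKO arrays were both the lowest and the highest of the 4. The type V chains, which seed type I fibrils, had the same order for Col5a1, at 2929 and 4695 against 2630.3 and 4759, and for Col5a2, at 3929 and 4433 against 3362 and 4492. Col5a3 had 1184 and 1977 in WT and 777 and 1908 in Ezh2cKO.

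The minor fibrillar genes also overlapped between the genotypes. Col11a1, a cartilage-type chain, had 401 and 564 in WT and 358 and 628 in Ezh2cKO. Col27a1, another fibrillar chain, had 2014 and 2231 against 2388 and 2216. Col2a1, the main collagen of cartilage, had 79.8 and 124 against 83.7 and 113, and Col11a2 had 97.7 and 142 against 107 and 119.8. These last signals are close to the filter's level of 73.2, and whether they were above background is not known, since no detection calls entered the fit. Col24a1 had no kept probe set, with signals between 6.88 and 16.8.

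Beaded-filament collagen VI, which links cells to the matrix around them, was lower in Ezh2cKO within both numbers for its 3 kept chains. So were 9 of the 33 collagen genes, these included, and 25.6% of all genes. The differences were not beyond the spread between arrays, although with arrays scaled to a common median Col6a2 was separated downwards. Col6a1 had 2273 and 3939 in WT and 1385 and 3854 in Ezh2cKO, Col6a2 had 3119 and 4426 against 2490.1 and 4071, and Col6a3 had 2867 and 5620.2 against 2398 and 5457. Their log2 differences were -0.37 (SE 0.53), -0.22 (SE 0.30) and -0.15 (SE 0.48). Each WT group spanned more than the distance between the genotype means.

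Collagen XVII, a transmembrane protein of hemidesmosomes, had 8277 and 7316 in WT and 9279 and 6863 in Ezh2cKO (log2 0.04, SE 0.19, with groups that overlapped). Among the collagens that decorate fibrils, Col12a1 had 1139 and 2587 against 1349 and 2449, Col14a1 had 1526 and 2917 against 1932 and 2858, and Col16a1 had 1863 and 1930.2 against 1913 and 1956. Col16a1 varied least among arrays of these. Col15a1, a collagen of vascular and muscle basement membranes, had 974 and 1274 in WT and 538 and 1267 in Ezh2cKO (log2 -0.42, SE 0.43). Only Ezh2cKO replicate 1 stood low, at 0.560 times WT within number 1 and 0.995 times within number 2.

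The dimmer members are given for completeness. Col9a1 had 162 and 206 in WT and 104 and 243 in Ezh2cKO, and Col9a3 had 171 and 42.0 against 284 and 47.6. Both are chains of a cartilage collagen, and Col9a3's other probe set ran the other way between array numbers, at 98.2 and 142 against 88.7 and 129. Col19a1 had 106 and 200.4 against 108 and 247, Col20a1 had 198 and 338 against 224 and 414, and Col22a1 had 119 and 130.3 against 79.6 and 133. These are also fibril-associated types. The transmembrane collagens Col23a1, at 112 and 72.4 against 99.3 and 119, and Col25a1, at 84.7 and 133 against 82.2 and 87.0, and Col26a1, at 67.7 and 118 against 77.0 and 126, overlapped between the genotypes. Col6a4, Col6a5, Col8a2, Col9a2, Col10a1 and Col13a1 had no kept probe set, with signals between 5.15 and 81.9.

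Within number 1, 20 of 33 collagen genes were lower in Ezh2cKO (60.6%, against 47.2% of all genes), with medians of -0.16 for the fibrillar, -0.24 for the basement membrane and -0.04 for the other class. Within number 2, 15 were lower (53.2% of all genes were), with class medians of 0.02, 0.05 and -0.01. The members with the lowest values within number 1 were Col15a1 (-0.84), Col6a1 (-0.71), Col5a3 (-0.60), Col9a1 (-0.57) and Col22a1 (-0.50), named after their values were seen. Within number 2 they lay between -0.05 and 0.22. Beside this, all 10 endothelial markers were lower in Ezh2cKO within number 1 (median -0.86), with 791 for Cdh5, the cadherin of endothelial junctions, on Ezh2cKO replicate 1 and 1881 to 2180.4 on the other arrays. Within number 2 the endothelial median was 0.07. The summed signal of the endothelial list was 10932 to 12476 in WT and 6203 to 13211 in Ezh2cKO, and its part in the collagen values was not tested. A sum of this kind adds unlike probe sets and follows the brightest members. Without Ezh2cKO replicate 1 the collagen median was 0.21 (-0.02 over all genes), and without Ezh2cKO replicate 2 it was -0.31 (0.03 over all genes). Each of these sets 1 Ezh2cKO array against WT arrays of both numbers, so it also holds the difference between array numbers.

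**Figure D2:**
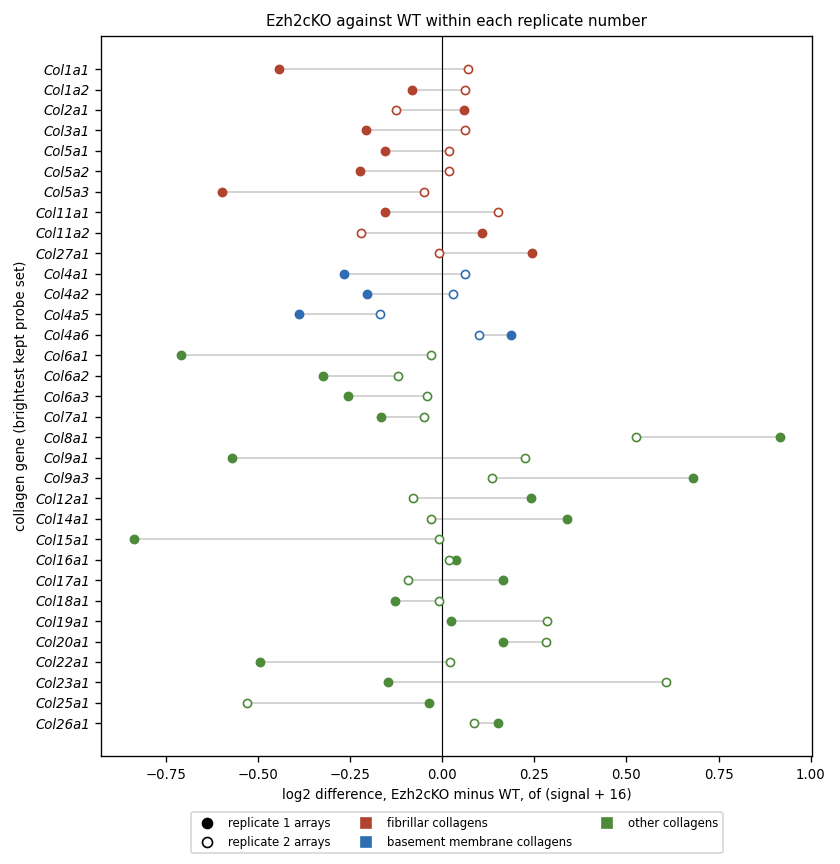
Log2 difference, Ezh2cKO minus WT, of signal plus 16 for the 33 kept collagen genes, from 1 array per genotype within replicate number 1 (filled) and number 2 (open), coloured by class. Col8a1 lies at 0.92 and 0.53, and Col15a1 and Col6a1 lie lowest within number 1 and near 0 within number 2.

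The arrays of 1 genotype were then set against each other. From 1 array each and so with no test, WT replicate 2 was higher than WT replicate 1 for 27 of the 33 collagen genes (81.8%), against 47.1% of all genes tested, with medians of 0.36 and -0.03. All 10 fibrillar genes were higher, by log2 0.15 to 0.73 (median 0.42), as were the 4 type IV genes, by 0.15 to 0.36 (median 0.24), while 13 of the 19 others were (median 0.38). With arrays scaled to a common median, which moved the median of all genes to -0.59, the class medians turned to -0.15, -0.34 and -0.19, and 11 of 33 were higher. In that scaling 27 of 33 collagen genes still lay above the median of all genes, as did all 10 fibrillar genes. Few differences were large: Col12a1 was at least 2-fold higher (1 of 33, against 3.28% of all genes) and Col9a3 at least 2-fold lower (1 of 33, against 0.976%). The other kept probe set gave log2 0.47 for Col12a1 and, with the opposite sign to the brightest, 0.47 for Col9a3.

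The Ezh2cKO arrays were compared in the same way. Ezh2cKO replicate 2 was higher than Ezh2cKO replicate 1 for 29 of 33 collagen genes, against 46% of all genes, with class medians of 0.47, 0.43 and 0.61 for fibrillar, basement membrane and other collagens. In this pair all 10 endothelial markers were also higher, with a median of 1.34, and their part in the collagen values was not tested. At least 2-fold higher were 6 of 33 genes (18.2%), against 6.16% of all genes: Col5a3, Col6a1, Col6a3, Col9a1, Col15a1 and Col19a1. Scaling arrays to a common median moved the median of all genes in this pair from -0.05 to -0.79, so these counts and class medians depend on the scaling. Col9a1 and Col19a1 had mean signals under 200, where the median of all genes in this pair was 0.44. Their other kept probe sets stayed under 2-fold, at log2 0.49 for Col9a1 and 0.59 for Col19a1. Of the 33 collagen genes, 26 lay above the median of their signal range in this pair. Col9a3 was at least 2-fold lower (1 of 33, against 1.44%), and as its probe sets disagree its value is uncertain.

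Members differed from each other in these pairs, also among those with related known roles. In the WT pair the collagen VI chains had log2 differences of 0.79 for Col6a1, 0.50 for Col6a2 and 0.97 for Col6a3. Col12a1 and Col14a1, which coat dermal fibrils, had 1.17 and 0.93, but 0.47 and 0.53 by their other kept probe sets. The other fibril-associated genes ranged from -1.69 for Col9a3 to 0.82 for Col19a1, with 0.05 for Col16a1. Col17a1 had -0.18, Col7a1 -0.08 and Col18a1 -0.08. In the Ezh2cKO pair the collagen VI chains had 1.47, 0.71 and 1.18, and Col17a1 had -0.43. The log2 differences of the collagen VI chains lay above those of the anchoring collagens on the same arrays, whatever single factor scales an array. They also differed in brightness, with mean signals of 2863 to 4086 for collagen VI, 7662 for Col7a1 and 7934 for Col17a1. Whether role or brightness goes with the difference was not tested. Neither pair was tested, as each has 1 array on each side, and a difference between array numbers over both genotypes together was not tested.

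**Figure D3:**
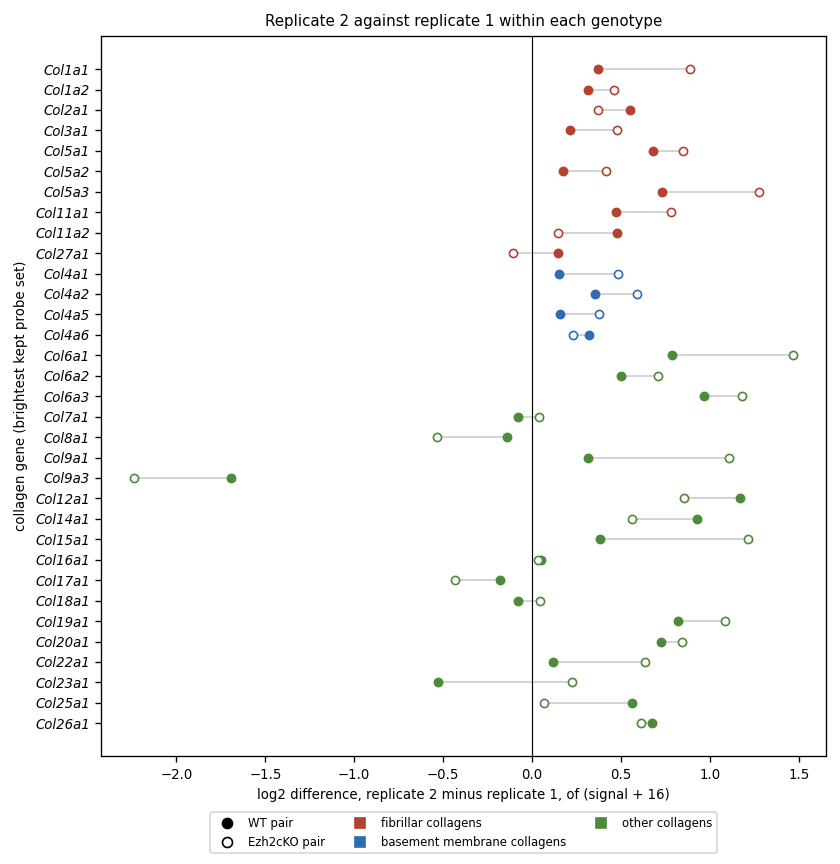
Log2 difference, replicate 2 minus replicate 1, of signal plus 16 for the 33 kept collagen genes, for the WT pair (filled) and the Ezh2cKO pair (open), coloured by class. All 10 fibrillar and all 4 type IV genes lie above 0 in the WT pair, Col17a1 lies below 0 in both pairs, and Col9a3 lies lowest.

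Probe sets of the same gene differed in size. Of 21 collagen genes with several kept probe sets, 6 had opposite signs in the WT pair and 8 had opposite signs between the genotypes. In 14 of the 21 the brightest probe set had the lowest difference between the WT arrays, counted with its sign. The share over all genes was not computed, so this count is not read as a trait of collagens. Among the 14, the brightest probe set changed more for Col9a3 (-1.69 against 0.47), Col23a1 (-0.53 against 0.03), Col8a1 (-0.14 against 0.13) and Col18a1 (-0.08 against 0.01). Col3a1 gave 0.21 by its brightest probe set and 1.10 by the other (1949.6 and 4190.2), Col4a1 gave 0.15 and 0.82, and Col1a2 gave 0.31, 0.48 and 1.69. The largest signals on the arrays were 21906 to 24300.4, and whether the brightest probe sets were compressed was not tested. When probe sets were averaged per gene, the fibrillar median in the WT pair was 0.59. Of the 82 probe sets, 5 were of design types that can detect near-identical transcripts of other genes.

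Dim genes were brighter as a group on WT replicate 2, so the collagens were also set beside genes of similar signal, in ranges chosen after the values were seen. Among 1673 genes with a mean signal from 2000 to 5000 the median difference in the WT pair was -0.14, and the 8 collagen genes in that range had a median of 0.59. The gap was smaller from 5000 upwards, where 8 collagen genes had 0.18 against -0.14 for all genes. The 4 collagen genes from 1000 to 2000 had 0.56 against -0.11, the 2 from 500 to 1000 had 0.09 against -0.07, the 2 from 200 to 500 had 0.60 against 0.05, and the 9 under 200 had 0.48 against 0.27. Over all ranges, 28 of 33 collagen genes lay above the median of their range. The 5 that did not were Col8a1, Col9a3, Col17a1, Col22a1 and Col23a1.

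Markers of dermal cells differed along with the collagens in the WT pair. Of 15 dermal fibroblast markers, 10 were higher on WT replicate 2, against 47.1% of all genes. Their median was 0.63 in the WT pair and 0.59 in the Ezh2cKO pair. Members did not move alike: Dcn had 15428 and 13276 in WT, Postn, a matrix protein of fibroblasts, 14364.5 and 13890, and Vim, a mesenchymal filament protein, 13502.5 and 15176, while Dlk1, a growth inhibitor of fetal mesenchyme, had 8566 and 11999. The summed signal of the list was 63536 and 71227 in WT, against 63341 and 74405 in Ezh2cKO. All 7 mural cell markers were higher on WT replicate 2 (median 0.74), led in brightness by Acta2, a smooth muscle actin, with 5797 and 8945. Their summed signal was 14310.3 and 23416 in WT and 13969 and 22948 in Ezh2cKO. Of 10 basal keratinocyte markers, 1 was higher, with a median of -0.22 and sums of 93893 and 81765 in WT and 87425 and 84144 in Ezh2cKO. The marker lists were read in the deposited scaling only. Scaling arrays to a common median moved the median of all genes in the WT pair from -0.03 to -0.59, so these directions depend on the scaling. The part of these cell types in the collagen differences was not tested. The remaining marker lists had medians in the WT pair of 0.21 for endothelial, 0.42 for skeletal muscle, 0.77 for cartilage (3 genes kept), -0.10 for suprabasal, -0.15 for Schwann, -0.23 for melanocyte and -0.36 for immune cell markers.

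**Figure D4:**
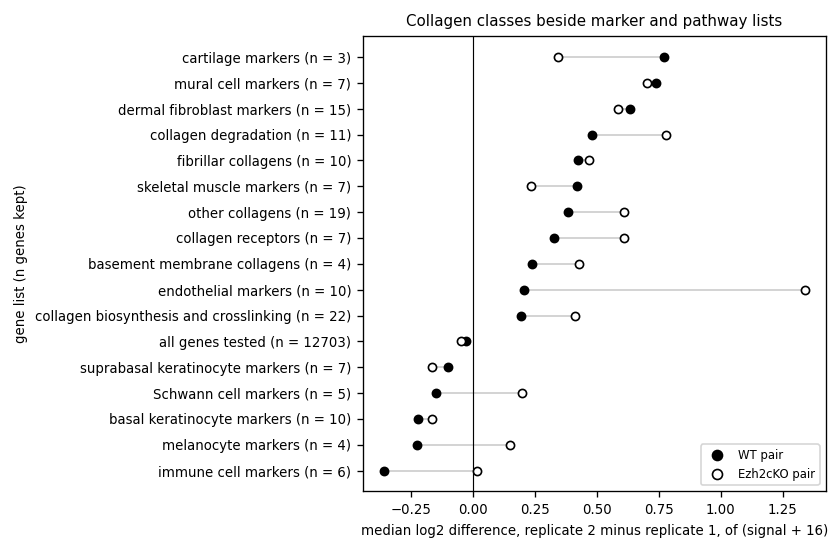
Median log2 difference, replicate 2 minus replicate 1, of signal plus 16 for each collagen class, pathway list and cell marker list, with the number of genes kept, for the WT pair (filled) and the Ezh2cKO pair (open). In the WT pair the cartilage, mural and fibroblast markers and the collagen degradation genes lie above the collagen classes. All genes tested lie near 0 in both pairs, and basal keratinocyte markers lie below 0 in both pairs.

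Genes that make, cut and bind collagen were read from the same fit, and limma called 0 of them between the genotypes at an adjusted p under 0.05. Of 22 kept genes for biosynthesis and crosslinking, 3 were higher on both Ezh2cKO arrays (8.52% of all genes were) and 0 lower (8.39%), with a median log2 difference of -0.02. The 3, named after their values were seen, were Colgalt1, a collagen galactosyltransferase, Plod1, a lysyl hydroxylase, and Tll1, a procollagen protease. Colgalt1 had 2312 and 2402 in WT and 2912 and 2436 in Ezh2cKO, and Plod1 had 1008 and 964 against 1073 and 1229. Tll1 had 77.1 and 71.8 against 98.2 and 83.6, near the filter's level of 73.2. Serpinh1, the collagen chaperone HSP47, had 8068 and 9544 in WT and 7499 and 9734 in Ezh2cKO. P4hb, a subunit of prolyl hydroxylase, had 9493 and 9795 against 10221 and 9794. Sparc, a collagen-binding matrix protein, had 14849 and 15553 against 13232 and 16268, and Ppib, a prolyl isomerase, had 9315 and 7158 against 8869.8 and 6698. In the WT pair 17 of the 22 were higher on replicate 2 (median 0.19, against 47.1% of all genes higher), and Plod2, a lysyl hydroxylase named after its values were seen, was the only one of them at least 2-fold higher, as were 3.28% of all genes.

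Of 11 kept genes for collagen degradation, 2 were lower on both Ezh2cKO arrays (8.39% of all genes were) and 0 higher (8.52%), with a median log2 difference of -0.08. These were Mmp14, a membrane collagenase, with 4979.9 and 4919.6 in WT and 4793 and 4389 in Ezh2cKO, and the inhibitor Timp4. Timp4 had 95.3 and 99.7 against 43.0 and 82.3, near the filter's level of 73.2. The other bright members were Timp3, with 1479.7 and 2455 against 1832 and 2604, Mmp2, a gelatinase, with 1238 and 1366 against 1396 and 1315, and Timp2, with 973 and 1487 against 755 and 1619. Mmp14 alone of these 4 did not overlap between the genotypes. In the WT pair 9 of 11 were higher on replicate 2 (median 0.48), against 47.1% of all genes. Fap, Timp1 and Ctsk, named after their values were seen, were at least 2-fold higher, against 3.28% of all genes.

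Of 7 kept collagen receptor genes, 0 were separated between the genotypes (median log2 0.03), against 8.52% of all genes upwards and 8.39% downwards. Ddr1, a collagen receptor kinase of epithelia, had 5237 and 4074 in WT and 4677 and 3767 in Ezh2cKO, and its mesenchymal relative Ddr2 had 212 and 522 against 211 and 553. They ran in opposite directions between array numbers. The integrin chain Itgb1 had 2177 and 2889 in WT and 1897 and 3697 in Ezh2cKO, and Itga1 had 239 and 566 against 194 and 512.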

How the data were processed

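Per the submitters' processing notes, the authors ran MAS5, and the linear signal intensity it gave for every probe set is what was deposited. Its version is not given in the sources used here. The trimmed mean (2% at each end) was 500.0 on each array, so the authors' scaling was kept. After 64 control probe sets were left out, 34945 probe sets had 1 symbol, 932 several and 9160 were not listed. Symbols were updated through the gene identifier to RefSeq (GRCm38.p6). Probe sets in the upper 60% by mean (27022) were compared on log2(signal + 16) by limma 3.58.1 (R 4.3.3), using lmFit and eBayes with a trend on signal and without a block, with Benjamini-Hochberg adjustment over all of them. The script was tested on simulated data. Named genes were Ezh2, each collagen gene with a kept probe set and the 4 brightest members of the pathway lists. Of the cell marker lists only the brightest are printed. Collagen members, classes and lists were chosen with earlier results of these data known. Alternatives were pseudocounts of 1 and 64, no filter, the upper 40%, quantile and common-median scaling, the mean of probe sets, a replicate block, no trend, an adjusted p of 0.1, 1.5-fold and leaving out each array. The number of arrays limits the precision.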

Additional observations from a re-analysis of the deposited data

How the results depend on the processing

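Limma called 0 of the members under each alternative, which says little about stability, as Ezh2 was called only with the replicate number as a block (adjusted p 0.0440) and when 1 array was dropped, at 0.0432 for WT replicate 1, 0.00290 for WT replicate 2 and 0.00122 for Ezh2cKO replicate 2. Over all probe sets 6 were called with the block, where Col8a1 had an adjusted p of 0.518, and 0 to 52 with 1 array left out, on the assumption that a lone array varies as other arrays do. The titles share a number only, and the deviations of same-numbered arrays correlated at 0.77. The collagen median between genotypes ranged from -0.31 to 0.21 with 1 array left out, which also holds the difference between array numbers. Col8a1 lay between 0.67 and 0.77 with all arrays and between 0.45 and 0.99 with 1 left out, and its lowest adjusted p over the alternatives was 0.518. Leaving out 1 array turned the sign of 26 of the 33 genes, none of them called, and the other settings that of 4. Without the filter 4 of 42 genes were separated upwards (9.90% of all genes), 3 of them, Col13a1, Col8a2 and Col6a4, being genes the filter removed, and at a common median 5 of 33 were separated downwards (5.25% of all genes). In the WT pair the members at least 2-fold higher numbered 2 of 42 without the filter (4.92% of all genes), 2 with quantile normalization (1.66%), 0 at a common median (0.978%) and 0 with the mean of probe sets (3.70%), and 9 reached 1.5-fold, as did 10.7% of all genes. The fibrillar median was 0.36 at a pseudocount of 64, 0.37 without the filter, 0.34 in the upper 40%, 0.36 with quantile normalization and 0.59 with the mean of probe sets. The median of the other collagens was 0.12 with quantile normalization. At a common median the class medians were -0.15, -0.34 and -0.19. With 3 arrays, where separation is easier to reach, the members above and below numbered 3 and 13 without WT replicate 1 (24.9% and 25.2% of all genes), 11 and 3 without WT replicate 2 (25.3% and 25.4%), 17 and 4 without Ezh2cKO replicate 1 (29.6% and 35.8%) and 4 and 19 without Ezh2cKO replicate 2 (36.7% and 30.9%). The causes were not tested. The dim members, near the filter's level, are limited by unknown background.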
